A study of Mus musculus with 21 samples.

Results

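The edge of a healing skin wound was compared with intact skin in mice, first with all days after wounding pooled and then day by day. The comparison used 12 of the 21 arrays of the series, namely the 9 titled as wound edge (3 each at day 2, 6 and 15 after wounding) and the 3 titled as intact skin at day 0. The other 9 arrays came from the wound bed. All animals were females, 9 to 13 weeks old, and their strain was C57Bl/KS-db/+, so edge and intact groups alike were heterozygous for db, the leptin receptor mutation that causes diabetes when homozygous. The wound was a 1.5 by 1.5 cm excision of back skin together with the panniculus carnosus, the thin muscle below the skin, and it was kept under a polyurethane dressing. The edge sample was a strip of skin 2 mm wide beside the wound. The intact sample was shaved skin. The labels give 3 animals for each time point and do not tie single samples to animals.

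The wound edge is where keratinocytes, the cells of the epidermis, proliferate and migrate to cover the defect, and where inflammatory cells, fibroblasts and vessels enter from the surrounding skin. The title of the series names heparan sulfate, a sulfated sugar chain carried by proteoglycans of the cell surface and the matrix, which binds growth factors and chemokines. Heparanase, the product of Hpse, cuts these chains, and N-deacetylase/N-sulfotransferases such as Ndst3 place sulfate groups on them during synthesis.

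Each array had 8 spots for each of 1687 probes, besides 328 spots that were blank or empty, and was hybridised with RNA of 1 sample labelled with Cy3. A probe was taken as detected on an array when its signal was above the 95th percentile of the blank and empty spots of that array. By this measure 541 to 851 probes were detected on the intact arrays and 544 to 840 on the edge arrays. Testing was limited to 974 probes, those detected on 3 or more of the 21 arrays. Of these, 442 were detected on all 12 edge and intact arrays, 120 on no intact array and 55 on no edge array. The median ratio of signal to local background was only 1.25 to 1.95 on the edge and intact arrays. The dimmest were edge day 15 replicate 3 (1.25), edge day 2 replicate 3 (1.26) and intact replicate 2 (1.27). Edge day 2 replicate 3 stood apart from its group, with a mean correlation of 0.870 with the other day 2 edge arrays, where the remaining edge and intact arrays had 0.908 to 0.957 within their groups. The files pair no probe with a gene symbol. Matching by accession to RefSeq (assembly GRCm38.p6) gave a symbol to 3 probes, Hpse, Fbln1 and Ndst3. The remaining probes are described by counts and ranges, with a few given by their catalogue identifier, and markers of skin or of infiltrating cells could not be looked up. In whole tissue, fewer cells of a type and less RNA per cell cannot be told apart.

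With the days weighted equally, 30 probes differed between wound edge and intact skin, 21 of them higher and 9 lower in the edge. These are 3.08% of the 974 probes tested (2.16% higher and 0.924% lower), at an adjusted p below 0.05 from limma, a linear model fitted to all probes, with Benjamini-Hochberg adjustment. An unadjusted p below 0.05 was reached by 117 probes. The 21 higher probes had a median log2 difference of 1.43, from 0.837 to 3.61, with standard errors (SE) from 0.204 to 0.593. The 9 lower probes had a median of -1.50, from -2.12 to -1.04, with SE from 0.273 to 0.413. Over all probes tested the median log2 difference was -0.0258 and the median size was 0.308. The threshold lay in a dense part of the list, with the last probe called at an adjusted p of 0.0498, the next at 0.0518 and 19 probes not called below 0.1. The number called depended on single arrays of both tissues. It was 18, 9 and 8 with intact replicate 1, 2 or 3 left out in turn, and 19 without the 3 dimmest arrays. With the 9 edge arrays as 1 group and no term for day it was 7 (4 higher and 3 lower), and with the bed arrays left out of the fit 57 (38 higher and 19 lower). Among the edge arrays, leaving out day 6 replicate 1 or day 15 replicate 1 gave 15, day 6 replicate 2 gave 17, day 15 replicate 2 gave 13, day 15 replicate 3 gave 18, and day 2 replicate 2 or day 6 replicate 3 gave 19.

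The signals of the 2 largest rises and the 2 largest falls among the 30 are given for every array, in log2 units of background-corrected intensity, and they differ in how they were spread over the days. M200001518 had the largest rise. It read 9.40, 8.73 and 7.90 on the intact arrays, 12.79, 13.34 and 12.09 in the edge at day 2, 12.56, 11.89 and 11.72 at day 6, and 12.09, 12.21 and 11.86 at day 15. All 9 edge arrays were above all 3 intact arrays, of which 1 was above its blank spots. The edge mean was 12.28 ± 0.52 (SD, n = 9) and the intact mean 8.68 ± 0.75 (SD, n = 3), a log2 difference of 3.61 (SE 0.59, 12.2-fold, limma adjusted p = 0.00107). Because only 1 intact array was above its blank spots, this fold is not exact. The call was lost with the edge as 1 group with no term for day (adjusted p = 0.0652).

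M200000353 came next. It read 8.66, 8.0 and 8.03 on the intact arrays, 10.65, 10.90 and 10.89 at day 2, 12.51, 12.29 and 12.29 at day 6, and 10.62, 11.02 and 11.15 at day 15. It was above the blank spots on every edge array and on no intact array, and the 3 day 6 arrays were its highest. Because intact skin gave no signal above blank spots, its rise is stated as at least 3.99-fold, comparing the edge mean with the lowest signal detected on the intact arrays. The log2 difference of the measured means was 3.14 (SE 0.39, limma adjusted p = 9.4e-05), and with the edge as 1 group the call was lost (0.0721).

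M200000717 had the largest fall. It read 10.29, 9.66 and 10.20 on the intact arrays, 9.04, 9.12 and 8.07 at day 2, 7.45, 7.79 and 8.03 at day 6, and 7.52, 7.20 and 7.19 at day 15. The groups did not overlap, and the probe was above the blank spots on 2 of 3 intact arrays and on 1 of 9 edge arrays. The log2 difference was -2.12 (SE 0.27, limma adjusted p = 9.4e-05).

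M200001373 read 11.17, 9.95 and 10.23 on the intact arrays, 8.70, 8.31 and 9.26 at day 2, 9.08, 7.79 and 7.60 at day 6, and 8.39, 7.94 and 8.0 at day 15. Again all edge arrays lay below all intact arrays. It was above the blank spots on all 3 intact arrays and on 1 edge array. The log2 difference was -2.11 (SE 0.41, limma adjusted p = 0.00664), and without intact replicate 1 it was -1.75 and no longer called (adjusted p = 0.0605). For each of these 4 probes an exact two-sided permutation test of the 9 edge against the 3 intact arrays gave p = 0.00455, the smallest that 220 arrangements allow, and the probes had been chosen from these same arrays.

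Over all 974 probes, the 9 edge and the 3 intact arrays did not overlap for 63 (6.47%), of which 36 (3.70%) were higher and 27 (2.77%) lower in the edge. Among the 30 called probes this was so for 12 of the 21 higher and 8 of the 9 lower ones, which the calls themselves favour. Of the 21 higher probes, 7 were detected on no intact array, 7 on all 3 intact arrays and 11 on all 9 edge arrays. Of the 9 lower probes, 6 were detected on all intact arrays, 2 on no edge array and 3 on all edge arrays. The list therefore holds probes that were measured on both sides, namely 6 of the higher and 3 of the lower ones on all 12 arrays, and others whose fold is only a bound.

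Split by day, the edge differed from intact skin at 4 probes at day 2 (0.411%, 3 higher and 1 lower), at 14 at day 6 (1.44%, 11 higher and 3 lower) and at 18 at day 15 (1.85%, 13 higher and 5 lower). The 3 daily comparisons use the same intact arrays. An unadjusted p below 0.05 was reached by 94, 99 and 106 probes, a narrower spread than that of the calls. The median size of the difference over all probes was also close between days, at 0.321, 0.328 and 0.327 on the log2 scale, and 84, 88 and 87 probes had a size above 1. The median SE was 0.412 for a single day and 0.336 over all days. The day 2 count depended most on single arrays. It was 0 without intact replicate 2 or 3, or without edge day 2 replicate 1 or 2, and 9 without edge day 2 replicate 3, the array that stood apart. Leaving out edge day 6 replicate 1 or 3, or edge day 15 replicate 1 or 2, gave 2. The day 6 count was 9 without intact replicate 2, 7 without intact replicate 3 and 9 without edge day 6 replicate 3. The day 15 count was 10 without intact replicate 3 and 9 without edge day 15 replicate 2. Whether the counts themselves differ between days was not tested.

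The 30 probes called over all days were then split by day. Since the difference over all days is the mean of the 3 daily ones, its direction is not independent of theirs. The 21 higher probes had median log2 differences of 1.33, 1.22 and 1.35 at day 2, 6 and 15, and 19 of them had the same sign on all 3 days. The size was greatest at day 2 for 7, at day 6 for 9 and at day 15 for 5. The 9 lower probes had medians of -1.31, -1.24 and -1.66, and all 9 had the same sign on all 3 days. Their size was greatest at day 2 for 2, at day 6 for 1 and at day 15 for 6. A difference beyond 1 on the log2 scale on every day was seen for 6 of the 21 higher and 8 of the 9 lower probes.

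**Figure D1:**
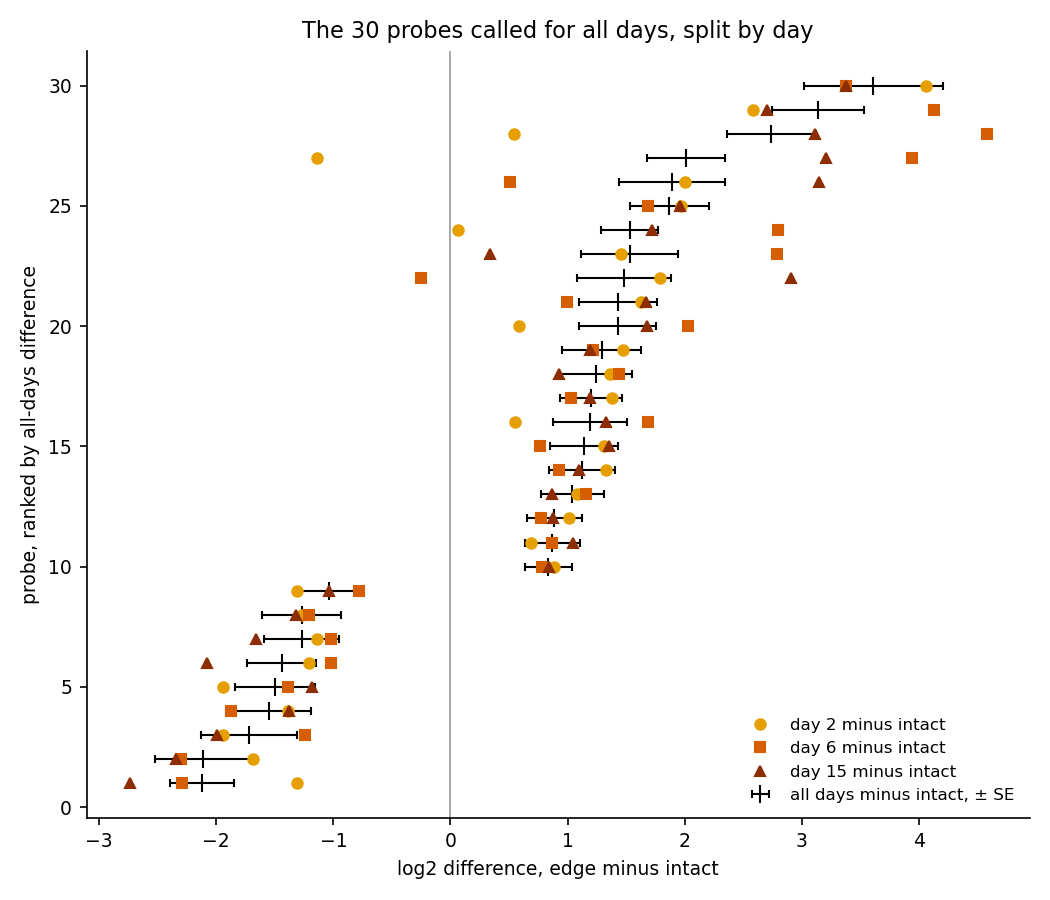
Difference from intact skin of each of the 30 called probes, on the log2 scale. Black ticks with bars show the difference over all days ± SE, and coloured symbols show day 2, 6 and 15. The 9 lower probes keep their sign on all days, and 19 of the 21 higher probes do.

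The named probes show these forms. M200001518 was higher on every day, by 4.06 at day 2 (limma adjusted p = 0.0155), 3.38 at day 6 (0.017) and 3.38 at day 15 (0.0124), with an SE of 0.73 each. Single arrays decided these daily calls. Without intact replicate 3 the adjusted p was 0.127, 0.145 and 0.113, and without intact replicate 2 it was 0.0988 at day 2 and 0.0633 at day 6. Leaving out edge day 2 replicate 1 or 2 gave 0.0608 and 0.103 at day 2, edge day 6 replicate 1 gave 0.0872 at day 6, and edge day 15 replicate 1 or 2 gave 0.0518 and 0.0678 at day 15. M200000353 was also higher on every day, with lower bounds on the fold of 2.71 (limma adjusted p = 0.0155), 7.94 (1.04e-05) and 2.94 (0.00197) in the order of the days. Its level at day 6 lay 1.55 above that at day 2 (SE 0.48), but this did not pass over all probes (limma adjusted p = 0.359). The F-test between days gave 0.32, and 0.00809 with only the edge and intact arrays in the fit. Its day 2 call was lost without intact replicate 2 (0.116) or 3 (0.127), or without edge day 2 replicate 1 (0.0608) or 2 (0.103). Without the 3 dimmest arrays, M200001518 was not called at day 6 (0.0965) or day 15 (0.103), and M200000353 was not called at day 2 (0.12) or day 15 (0.0714).

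M200000717 differed by -1.31 at day 2 (SE 0.33, limma adjusted p = 0.0874), -2.29 at day 6 (0.000225) and -2.74 at day 15 (6.96e-05). The fall thus passed the test at day 6 and day 15. No edge array of these days was above the blank spots, so the fitted sizes are not exact. Against the lowest signals detected on those arrays, intact skin was about 2.05-fold above day 6 and about 1.87-fold above day 15. Intact skin itself was above the blank spots on 2 of 3 arrays, so these are no strict bounds, and they give no order of the days. Its difference between days did not pass (F-test adjusted p = 0.0857), except without edge day 2 replicate 3 (0.016). M200001373 differed by -1.69 at day 2 (SE 0.51, limma adjusted p = 0.128), -2.30 at day 6 (0.0196) and -2.34 at day 15 (0.0124). No edge array of day 2 or day 15 was above the blank spots for it, so intact skin was at least 2.47-fold higher than day 15. The single-day calls of M200001373 were lost without intact replicate 1 (adjusted p = 0.0942 at day 6 and 0.0725 at day 15), and at day 6 also without intact replicate 3 (0.067) or edge day 6 replicate 2 (0.0902) or 3 (0.126), at day 15 without edge day 15 replicate 2 (0.0701) or 3 (0.0558). Both calls were also lost when each array was scaled to its 75th percentile (0.116 and 0.0994) or its median (0.0651 and 0.0605), and the day 15 call without the 3 dimmest arrays (0.0662).

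Whether the edge itself changed over time was tested by a moderated F-test between the 3 edge groups, which uses no intact array. It called 7 of 974 probes (0.719%), with 43 at an unadjusted p below 0.05. Of these 7, 4 had their highest mean at day 6 and 3 their lowest mean at day 6. By pairs of days, 6 probes differed between day 6 and day 2 (0.616%, 5 higher and 1 lower at day 6), 6 between day 15 and day 6 (0.616%, 5 higher and 1 lower at day 15) and 4 between day 15 and day 2 (0.411%, 3 higher and 1 lower at day 15). The number of probes that differed between days was 13 without edge day 2 replicate 3. The day 15 to day 6 count was 2 or 3 with any 1 of the 6 arrays of these groups left out, the day 6 to day 2 count was 10 without edge day 2 replicate 3 (4 higher and 6 lower at day 6) and 11 without the 3 dimmest arrays (5 and 6), and the day 15 to day 2 count was 2 without edge day 15 replicate 3. With only the arrays compared in the fit, day 15 against day 6 gave 3 higher and 5 lower at day 15. The balance of rises and falls between days is therefore not settled. Of the 7 probes, 4 were among the 30 that differed from intact skin over all days, which is 57.1% of the 7 and 13.3% of the 30. Over all 974 probes, 3.08% were called over all days and 0.719% between days. Both tests use the same edge arrays and share an estimate of the spread, and the overlap itself was not tested. The following 4 of the 7 were picked after their values were seen, as those with the lowest p among the probes higher and lower at day 6 than at day 2.

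M200001049 changed most clearly. It read 10.63, 10.87 and 10.98 in intact skin, 9.72, 9.55 and 9.80 in the edge at day 2, 14.21, 15.33 and 14.78 at day 6, and 14.21, 14.45 and 13.46 at day 15. The day 2 arrays lay below intact skin and the later arrays far above it, with no overlap between them. The rise from day 2 to day 6 was 5.08 (SE 0.41, 33.9-fold, limma adjusted p = 6.62e-08; F-test 8.88e-08), and day 15 differed from day 6 by -0.73 (adjusted p = 1). At day 2 only 2 of 3 edge arrays were above their blank spots, replicate 3 not, so this fold is not exact. Against intact skin the difference was -1.14 at day 2 (adjusted p = 0.246), 3.94 at day 6 (2.57e-06) and 3.21 at day 15 (6.96e-05). The difference over all days of 2.01 (adjusted p = 0.00107) is therefore a mean of days that differ in sign, and the exact permutation test over the 9 edge and 3 intact arrays gave p = 0.182.

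M200000014 was above the blank spots on every edge array of day 6 and day 15, and on none of day 2 or of intact skin. It read 8.28, 8.35 and 8.11 in intact skin and 8.26, 8.41 and 8.28 at day 2. At day 6 it read 11.23, 11.10 and 10.80, and at day 15 10.03, 10.13 and 9.76. Its rise from day 2 was at least 3.41-fold by day 6 (limma adjusted p = 5.72e-06, F-test 2.61e-05) and at least 1.62-fold by day 15 (0.00718).

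M200001364 and M200001380 had the opposite course, with their lowest mean at day 6. The fall from day 2 to day 6 passed the test for M200001364 (limma adjusted p = 0.011) but not for M200001380 (0.0717). M200001364 read 7.31, 9.18 and 7.71 in intact skin, 12.71, 12.59 and 8.76 at day 2, 6.89, 6.69 and 7.91 at day 6, and 13.20, 13.85 and 11.72 at day 15. No intact or day 6 array was above its blank spots, and at day 2 the third replicate, the dim array that stood apart, was not either. The mean of day 15 exceeded that of day 6 at least 15.1-fold (limma adjusted p = 0.00087) and that of intact skin at least 11.7-fold (0.00168). The F-test between days gave 0.000656. Only 5 of the 9 edge arrays were above the blank spots, so its difference over all days has no strict bound. It was about 2.15-fold against the lowest signals detected on the intact arrays. This difference missed the threshold (limma adjusted p = 0.0518) and passed it without edge day 2 replicate 3 (0.0018) or edge day 15 replicate 3 (0.0473). At day 2, with 2 of 3 arrays above the blank spots, it was about 3.94-fold above intact skin. That missed the threshold (0.0874) and passed it without edge day 2 replicate 3 (0.000756).

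M200001380 read 8.08, 9.36 and 8.42 in intact skin, 11, 11.19 and 9.04 at day 2, 8.58, 8.22 and 8.30 at day 6, and 11.72, 11.69 and 11.18 at day 15. The same day 2 array was the low one. The mean of day 15 exceeded that of day 6 at least 5.74-fold (limma adjusted p = 0.00148, F-test 0.00233) and that of intact skin at least 4.46-fold (0.00168). At day 2, with 2 of 3 arrays above the blank spots, it was about 2.05-fold above intact skin. That missed the threshold (0.0915) and passed it without edge day 2 replicate 3 (0.00327). This probe was the last of the 30 called over all days (limma adjusted p = 0.0498). Its difference was about 1.66-fold, with 5 of 9 edge arrays above the blank spots. Leaving out any 1 of the intact, day 6 or day 15 edge arrays, or edge day 2 replicate 1 or 2, ended that call (adjusted p from 0.0582 to 0.301).

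No difference between edge and intact skin passed the test for the genes that could be named. Hpse, which encodes heparanase, read 9.95, 11.02 and 10.13 in intact skin, 10.25, 10.11 and 10.46 in the edge at day 2, 10.22, 10.25 and 10.06 at day 6, and 10.21, 10.24 and 10.41 at day 15. The 9 edge arrays lay within a narrow band, with 1 intact array below it, 1 within it and 1 above it. The edge mean was 10.24 ± 0.13 (SD, n = 9) and the intact mean 10.37 ± 0.57 (SD, n = 3), a difference of -0.13 (SE 0.26, 95% interval -0.68 to 0.42, limma adjusted p = 0.87). The exact two-sided permutation test gave p = 0.514, and 0.514 after Benjamini-Hochberg adjustment over Hpse and Fbln1. The sign turned to 0.20 without intact replicate 2, so no direction is given. By day the differences were -0.10, -0.20 and -0.09. These intervals leave room for a change of moderate size in either direction.

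Fbln1, which encodes the matrix protein fibulin-1, read 10.01, 9.77 and 10.58 in intact skin, 10.47, 10.25 and 9.22 at day 2, 9.90, 11.28 and 10.90 at day 6, and 10.55, 10.70 and 10.17 at day 15. Edge and intact arrays overlapped throughout. The difference over all days was 0.26 (SE 0.42, 95% interval -0.61 to 1.13, limma adjusted p = 0.824; exact permutation p = 0.491, 0.514 adjusted over Hpse and Fbln1). By day it was -0.14, 0.57 and 0.35, none called. The day 2 value turned to 0.24 without edge day 2 replicate 3 and to 0.09 without intact replicate 3. On none of the 21 arrays was the probe for Ndst3 above the blank spots, so it has no level here. Of the 43 tested probes with a public identifier, 0 were called by limma over all days and 3 had an unadjusted p below 0.05. Over all 974 probes 3.08% were called and 12% had an unadjusted p below 0.05, and with 43 probes nothing is read from the lower counts. All 30 called probes carry catalogue identifiers.

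Set against the wound bed, the edge differed at 319 of 974 probes (32.8%), 159 higher (16.3%) and 160 lower (16.4%). This comparison has 9 arrays on each side and a median SE of 0.238, against 0.336 for the comparison with intact skin. The numbers called are therefore not comparable. Edge and bed samples of a day may come from the same animals, which the labels do not state, and the fit took them as independent. With replicate number as a block 305 probes were called, but whether these numbers pair edge with bed samples is not known. The median size of the difference over all probes was 0.437 for edge against bed and 0.308 for edge against intact skin. Scan day cannot be fully separated from edge and bed, since edge arrays were scanned on days 1 and 2 and bed arrays on days 2 and 3. With scan day as a block, 59 probes were called (36 higher and 23 lower in the edge). For the 21 probes higher in the edge than in intact skin, the median was 1.43 in the edge and 0.684 in the bed, both against intact skin. For the 9 lower probes the medians were -1.50 and -1.70. The bed had the same sign for 18 of the 21 higher and all 9 lower probes. The bed and edge values share the intact arrays, which favours a common sign. The probes were also chosen by their edge values, which favours a larger size in the edge, so nothing is read from comparing these medians.

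Among the named probes, M200001518 was 2.67 higher in the edge than in the bed over all days (limma adjusted p = 0.000105, or 0.0215 in the fit blocked by scan day). Its bed means were 7.41, 9.87 and 11.56 at day 2, 6 and 15, against edge means of 12.74, 12.05 and 12.06. The bed was above the blank spots on 0, 1 and 3 of 3 arrays at these days, so the size is not exact. At day 15, bed replicates 2 and 3 (12.44 and 13.27) lay above every edge array of that day. M200001049 was 2.19 higher in the edge over all days (1.68e-06, or 0.000924 with the block), with bed means of 10.02, 11.24 and 10.67 at day 2, 6 and 15 against edge means of 9.69, 14.77 and 14.04. These higher levels in the edge over all days thus passed the test in both fits, and single days were not tested against the bed. M200000014 was 1.22 higher (2.93e-05), and M200001364 and M200001380 were 1.78 (0.00749) and 1.35 (0.00144) higher. None of the 3 passed when scan day was blocked (adjusted p = 0.0534, 0.31 and 0.165). At day 2, 6 and 15, M200000014 was above the blank spots on 1, 0 and 0 of 3 bed arrays. For M200001364 this was so on 0, 0 and 1, and for M200001380 on 0, 1 and 1, so these 3 sizes are not exact. M200000353, M200000717 and M200001373 differed from the bed by -0.64, -0.42 and 0.61, and none of these passed (adjusted p from 0.0852 to 0.115). Single bed arrays decided this. M200000353 passed without bed day 6 replicate 2 (-0.76, 0.0444) or bed day 15 replicate 1 (-0.88, 0.00577). M200001373 passed without the same arrays (0.76, 0.0491, and 0.80, 0.0306), and M200000717 without bed day 6 replicate 1 (-0.52, 0.0425). M200000717 was above the blank spots on 1 of 9 edge arrays and on 2, 0 and 0 of 3 bed arrays at day 2, 6 and 15. For M200001373 this was so on 1 of 9 edge arrays and on 0, 0 and 1 of 3 bed arrays. Both sides of these 2 comparisons thus lay mostly at the level of the blank spots, and nothing is read from their differences. For M200000353 the difference over all days is a mean of days that differ in sign. Its edge and bed means were 10.81 and 9.77 at day 2, 12.36 and 13.61 at day 6, and 10.93 and 12.65 at day 15. Measured means also differed in sign between days for M200001049 and M200000014, lower in the edge at day 2 (9.69 against 10.02 and 8.31 against 8.83). For M200001364 and M200001380 the edge mean was the lower one at day 6 (7.16 against 8.87 and 8.37 against 9.05). On those days no edge array was above the blank spots for M200000014, M200001364 or M200001380.

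The difference of Hpse between edge and bed was -0.64, lower in the edge (SE 0.19, 95% interval -1.03 to -0.25, limma adjusted p = 0.0127). Blocked by scan day it was -0.41 and not called (adjusted p = 0.572), and with median scaling -0.39 (0.143). Fbln1 differed by 0.06 (adjusted p = 0.901), with a sign that turned under several settings.

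Scan day was a possible batch in the comparison with intact skin too. Scan day 1 held 6 edge arrays and 1 intact array, and scan day 2 held 3 edge and 2 intact arrays. All 30 called probes had the same sign within each of these days, with median sizes of 1.35 and 1.44 against 1.43 over both, although these are the arrays on which they were called. With scan day as a block, 15 probes were called (10 higher and 5 lower), 14 of them among the 30. Within scan day 1 and scan day 2, the edge minus intact difference of the measured means was 3.08 and 3.58 for M200001518, 2.68 and 3.43 for M200000353, -2.27 and -2.17 for M200000717, and -2.80 and -1.81 for M200001373. It was 2.28 and 1.75 for M200001049, and 1.58 and 1.38 for M200000014. For M200001364 it was 3.68 and 1.03, and for M200001380 2.32 and 0.61, and the low day 2 array of both was scanned on day 2. Hpse changed sign between the scan days (0.26 and -0.27), and so did Fbln1 (0.52 and -0.08).

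**Figure D2:**
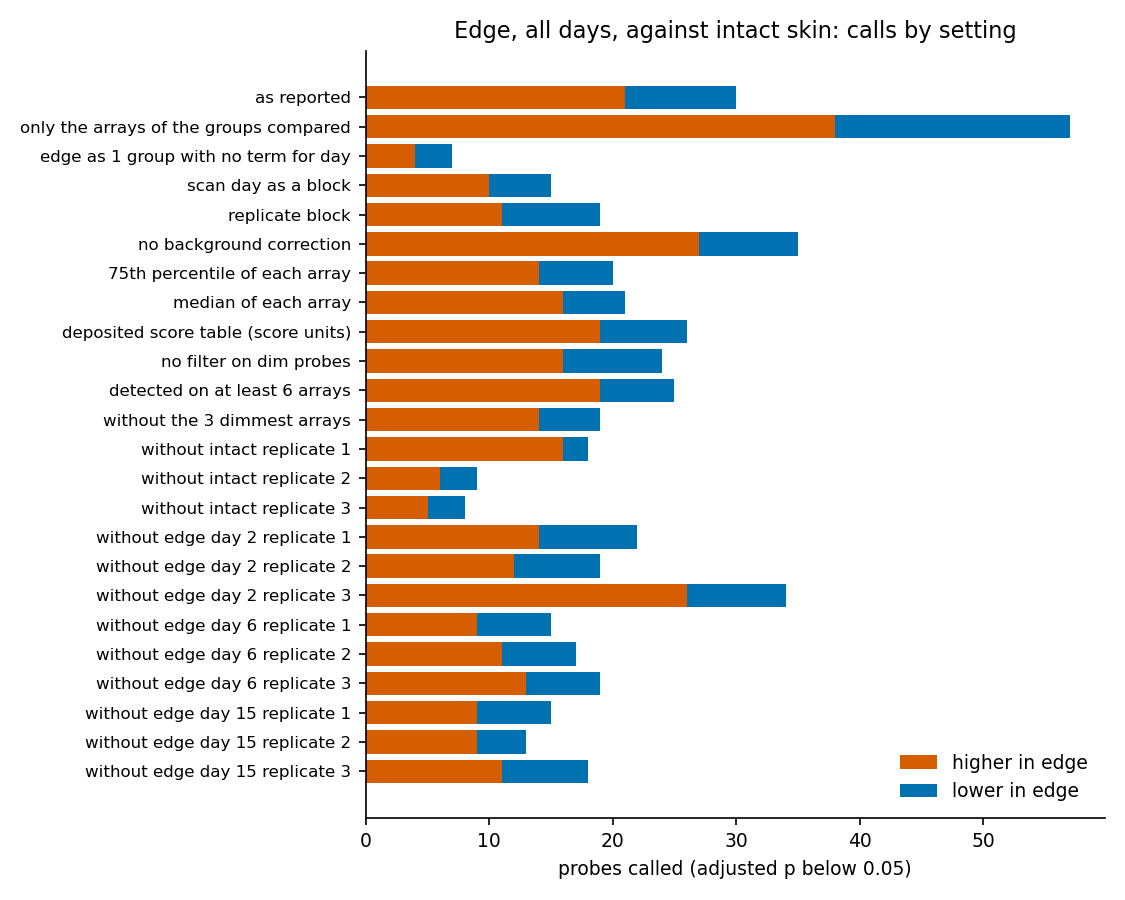
Number of probes called higher and lower in the wound edge of all days than in intact skin under each processing setting, as stacked bars from 0. The count of 30 lies between 7, with the edge taken as a single group, and 57, with the bed arrays left out of the fit.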

How the data were processed

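The authors deposited a scanner file for each of 21 arrays, with linear spot intensity values (at most 65535). Per the file headers, spots were quantified from a 532 nm scan with image software of version 4.1. Amplification and Cy3 labelling started from 500 ng of total RNA, per the labels' protocols. The deposited files also hold a spot flag from 0 to 3, another kind of value, which no source used here explains. A deposited table of the whole series holds a log score per probe. Taking log mean signals of spots without flag 1, not background-subtracted, and scaling every array to median 1 and SD 0.2 gave the deposited score back to within 0.00119.

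Intensities were background-corrected by normexp (signal mean against local background median, offset 50), log2-transformed, averaged for each probe over those of its 8 spots that lacked flag 1, and quantile normalized with limma 3.58.1 in R 4.3.3. Quantile normalization hides a shift of most probes in one direction. A mean per group was fitted to all 21 arrays (14 residual degrees of freedom), moderated by empirical Bayes, and p-values were two-sided and adjusted within each of 9 comparisons. A probe detected on no array of a group has only a bound there, computed from means of, per array, the higher of its own signal and the lowest detected signal. Where the brighter group also held arrays not above the blank spots, their measured signal entered its mean. The fold is then given as about, since it is no strict bound. The number of arrays limits the precision. Whether samples of a group came from separate animals is stated only as 3 animals per time point, so p-values cover only the spread seen between samples. As a check for an array deposited repeatedly, probe differences within a pair of arrays of any edge or intact group had a median of at least 1.90 times their spot error, where identical samples would give 0.674, and each array was counted as 1 sample.

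The rule for named genes took Hpse, Fbln1 and Ndst3 and, without gene names, the 2 largest rises and falls among the probes called over all days that were detected on at least 3 of the 12 arrays. Lists of heparan sulfate genes and cell type markers had also been drawn up and could not be tested, because 1612 of 1687 probes carry only a catalogue identifier and 75 a public one. The comparison, rules and lists were chosen with earlier results of these data known. Deviations of same-numbered intact and edge samples correlated at 0.134, 0.23 and 0.2 for replicate 1, and from -0.293 to -0.0433 for replicates 2 and 3. Whether replicate numbers pair intact with edge samples is not known, since the labels do not tie samples to animals. Between edge day 2 and day 15 all 3 same-numbered pairs deviated together (r of 0.323, 0.406 and 0.604), and with the replicate block that comparison called 3 probes where 4 were called without it. Edge replicates 1 and 2 of each day were scanned on day 1 and replicate 3 on day 2, so replicate number and scan day are tied. The fits were tested on simulated data. Alternatives changed the arrays fitted, the blocks, background correction, scaling and detection filter, or left out arrays. Plots were drawn with matplotlib 3.10.9 in Python 3.11.15.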

Additional observations from a re-analysis of the deposited data

Results flagged for a closer look

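The level in the wound edge differed between day 2, 6 and 15 at 7 of the 974 probes tested, by the moderated F-test of limma between the 3 edge groups. For M200001049 the adjusted p was 8.88e-08, with edge means of 9.69, 14.77 and 14.04 in log2 units. For M200000014 it was 2.61e-05, with means of 8.31, 11.05 and 9.97, of which the first was not above blank spots. For M200001364 it was 0.000656, with means of 11.36, 7.16 and 12.92, and for M200001380 0.00233, with means of 10.41, 8.37 and 11.53. In both of the latter the day 6 signal was not above blank spots and 1 of 3 day 2 arrays, edge day 2 replicate 3, was low. No edge group had 4 or more arrays, so single arrays were not tested as outliers within a day.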

How the results depend on the processing

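The 30 probes called over all days became 57 with only the 12 edge and intact arrays in the fit (38 higher and 19 lower, 28 of the 30 among them), 7 with the edge as 1 group, 15 with scan day as a block, 19 with the replicate block and 19 without the 3 dimmest arrays, and leaving out 1 array gave 8 to 34. Of the 30, 1 was called in all settings in which it was tested and 7 were lost in only 1, and the median was 14 of 23 settings. With only the arrays compared, the calls were 20 at day 2, 31 at day 6, 48 at day 15 and 12 between days. The 4 calls at day 2 became 2 with the replicate block, 0 without background correction, 2 with the 75th percentile scaling, 0 with the deposited score table and 7 without the dimmest arrays. With 1 array left out they were 0 to 9, at day 6 7 to 15 and at day 15 9 to 26. Between days, the 7 calls became 12 with scan day as a block and 6 to 13 with 1 array left out, and 6 of the 7 were called in all 22 settings. Without the dimmest arrays day 6 against day 2 gave 11 and day 15 against day 2 gave 1. With 1 array left out the 3 pairs of days gave 4 to 10 (day 6 against 2), 2 to 7 (15 against 6) and 2 to 5 (15 against 2). Edge against bed gave 59 with scan day as a block and 260 to 355 with 1 array left out. The split of its calls into higher and lower moved with the scaling and filter, from 159 and 160 to 142 and 201 (75th percentile), 223 and 108 (median), 169 and 125 (deposited score) and 177 and 216 (no filter on dim probes).

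Taking the edge as 1 group ended the calls over all days of M200001518 (adjusted p = 0.0652), M200000353 (0.0721), M200001049 (0.481) and M200000014 (0.239). Differences near 0 changed sign. Fbln1 against the bed was -0.05 with scan day as a block and 0.00 with the 75th percentile scaling. Hpse at day 15 against intact skin was 0.08 with median scaling and 0.01, in score units, with the deposited table. Without the dimmest arrays Hpse against intact skin was 0.15 over all days (exact permutation p = 0.0833) and 0.14, 0.13 and 0.18 at day 2, 6 and 15, Fbln1 at day 2 was 0.06 and M200001380 at day 6 was 0.12. With 1 array left out Hpse ran from -0.33 to 0.20 over all days, -0.30 to 0.23 at day 2, -0.40 to 0.13 at day 6 and -0.29 to 0.24 at day 15, Fbln1 at day 2 from -0.39 to 0.24 and against the bed from -0.17 to 0.23, M200001380 at day 6 from -0.53 to 0.12, and M200000014 at day 2 from 0.00 to 0.12. The cause was not tested. Of 18 same-numbered pairs of samples, 8 had a correlation of deviations over 0.1 (all 18 ran from -0.368 to 0.604), and whether the numbers pair intact with edge samples is not known. M200000717 and M200001373 had no value with detection on at least 6 arrays. Signal close to background limits most probes, and 713 of 1687 were too dim to test.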
